A study of Mus musculus with 8 samples.

Results

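The genes described here are the Trim family, taken as every mouse gene whose current symbol is Trim followed by a number. The gene table used for naming held 69 such genes, and 65 of them had at least 1 named probe on the arrays, with 95 probes in all. After 1 probe was kept per gene, the brightest one well above background on at least 4 arrays, 52 of the 69 could be compared between groups, among 31646 features tested in the series. Signals are given as log2 processed intensity minus the 75th percentile of the same array, so a signal of 0 equals that percentile. Probes bind with different strength, and signals are compared between arrays for 1 gene and not between genes.

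Intestinal stem cells sorted for a high Lgr5 reporter signal were profiled on 8 one-colour arrays, each holding the RNA of 1 sample. The 4 samples labelled Irf2_AhcKO came from mice that carried Irf2fl/fl, the AhCre transgene and Lgr5-EGFP-Ires-CreERT2, and the 4 control samples from mice with Irf2fl/fl and Lgr5-EGFP-Ires-CreERT2. Both groups thus carried the floxed Irf2 gene and the Lgr5 reporter allele, which also encodes a tamoxifen-inducible Cre, and both were collected 1 month after 5 days of β-naphthoflavone. Ah-Cre is a recombinase under a xenobiotic-inducible promoter that this compound switches on, in the intestine and in some other tissues. The ages of the mice were not stated. The design text names 4 independent mice for each genotype and elsewhere 2 replicates, so p values here reflect only how far these samples spread, which may be partly technical. The comparison asks which genes depend on IRF2, a DNA-binding protein of interferon response elements that mostly restrains them.

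TRIM proteins share a tripartite motif of a RING finger, B-box zinc fingers and a coiled coil, and most act as ubiquitin ligases. The end of the protein sets the subfamily: a PRY-SPRY domain in many antiviral members, PHD and bromodomains in chromatin regulators, NHL repeats in RNA-binding members, and a COS box in members that bind microtubules or muscle filaments. Part of the family is induced by interferons, and in the mouse the relatives of human TRIM5, TRIM34 and TRIM6 lie side by side with the mouse-specific Trim30 genes on chromosome 7.

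The arrays lay on 2 slides, slide 1 with replicates 1 and 2 of both groups and slide 2 with replicates 3 and 4, and the slide was a term of every fit unless stated. Between 61.4% and 69.8% of spots were well above background and none was saturated, and the number of arrays limits the precision. Of 8 stem cell markers, 7 had a named probe, Lgr5 and Ascl2 among them, and these were well above background on all 8 arrays. Irf2 itself was not lower under the Irf2_AhcKO label, with a signal of 0.91 ± 0.23 in Irf2_AhcKO and 0.64 ± 0.26 in control (SD, n = 4 each). Its log2 difference was 0.27 (SE 0.12, adjusted p = 0.465 by limma), so every direction below compares arrays by their labels, Irf2_AhcKO or control. The place of the Irf2 probe relative to the deleted part was not stated, and it may check nothing about the deletion. Ah-Cre is also in the scan names of control replicates 3 and 4, which leaves their Cre status unsettled. On control replicate 4 the enterocyte enzyme gene Sis also stood far above the other control arrays.

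The sequences shown are promoters that hold the core of an interferon response element, that is GAAA, any 2 bases and GAAA again, on either strand. They were chosen after the values were seen: 5 of the 6 genes below reached an unadjusted p below 0.05, while Trim21 holds the same letters at a small difference. Trim31 and Trim62, with larger differences than Trim26, lack the letters. The promoters are those of RefSeq on GRCm38.p6, from 250 bases before to 50 bases after an annotated start, written 5′ to 3′ along the gene's strand, with matches in capitals. A match read from the opposite strand appears as TTTC, any 2 bases and TTTC, and matches may overlap, as they do in Trim26 and Trim21.
Trim12a at chr7:104315446-104315745 (minus strand): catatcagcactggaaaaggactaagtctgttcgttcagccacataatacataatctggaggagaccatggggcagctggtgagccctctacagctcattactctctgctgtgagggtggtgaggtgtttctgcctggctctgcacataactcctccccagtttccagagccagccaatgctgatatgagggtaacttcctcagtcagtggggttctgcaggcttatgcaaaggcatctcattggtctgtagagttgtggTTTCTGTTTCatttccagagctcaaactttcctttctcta
Trim12c at chr7:104353300-104353599 (minus strand): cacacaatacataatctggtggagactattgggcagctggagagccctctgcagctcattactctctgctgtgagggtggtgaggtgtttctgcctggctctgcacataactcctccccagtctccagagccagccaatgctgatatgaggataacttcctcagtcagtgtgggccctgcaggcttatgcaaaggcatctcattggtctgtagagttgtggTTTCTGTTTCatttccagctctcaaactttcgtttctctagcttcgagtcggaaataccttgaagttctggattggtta
Trim34a at chr7:104244207-104244506 (plus strand): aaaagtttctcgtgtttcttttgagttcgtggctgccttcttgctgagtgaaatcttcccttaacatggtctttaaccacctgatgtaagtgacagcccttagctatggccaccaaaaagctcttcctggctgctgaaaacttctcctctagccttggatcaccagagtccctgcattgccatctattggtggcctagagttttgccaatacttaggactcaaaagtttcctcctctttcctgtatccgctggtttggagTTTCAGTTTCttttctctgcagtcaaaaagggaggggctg
Trim30d at chr7:104507800-104508099 (minus strand): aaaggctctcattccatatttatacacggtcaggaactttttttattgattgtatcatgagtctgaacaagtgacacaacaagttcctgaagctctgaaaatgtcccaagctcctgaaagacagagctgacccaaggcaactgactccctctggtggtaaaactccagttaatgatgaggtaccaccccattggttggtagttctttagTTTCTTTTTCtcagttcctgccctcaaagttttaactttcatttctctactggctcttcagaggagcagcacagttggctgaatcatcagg
Trim26 at chr17:36836896-36837195 (plus strand): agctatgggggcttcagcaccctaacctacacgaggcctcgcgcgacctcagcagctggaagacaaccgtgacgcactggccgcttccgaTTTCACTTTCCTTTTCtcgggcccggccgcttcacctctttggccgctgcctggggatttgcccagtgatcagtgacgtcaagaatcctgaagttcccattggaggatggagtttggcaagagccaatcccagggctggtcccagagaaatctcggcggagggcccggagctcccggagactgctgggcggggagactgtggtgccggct
Trim21 at chr7:102565433-102565732 (minus strand): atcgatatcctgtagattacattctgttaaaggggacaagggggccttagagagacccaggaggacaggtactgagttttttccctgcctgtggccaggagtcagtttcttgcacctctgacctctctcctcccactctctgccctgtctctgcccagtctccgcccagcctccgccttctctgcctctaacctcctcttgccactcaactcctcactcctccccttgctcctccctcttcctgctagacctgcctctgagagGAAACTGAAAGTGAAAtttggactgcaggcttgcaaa
With the annotated start as position 0, the first base of the match lay at 10 in Trim12a, -29 in Trim12c, 10 in Trim34a and -41 in Trim30d. In Trim26 the overlapping matches began at -160 and -154, and in Trim21 at 13 and 19. The Trim12a promoter shared an unbroken run of 241 bases with that of Trim5, match included. The longest run it shared with that of Trim12c had 71 bases and did not hold the match, which lay in a shorter run that both share. The promoters of Trim30a and Trim30d shared a run of 118 bases that holds the match.

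No Trim gene passed a Benjamini-Hochberg adjusted limma p of 0.05 over all features, a threshold that 0.0537% of the 31646 features passed, 0.0284% higher and 0.0253% lower. At an unadjusted p below 0.05, 9 of the 52 measured Trim genes (17.3%) were higher in Irf2_AhcKO, where 5.92% of all features were. A further 4 (7.69%) were lower, against 4.99% of all features, and 39 did not reach that p. The lower count was 2 without control replicate 2. It includes Trim62, Trim30d and Trim7, well above background on 0, 1 and 2 Irf2_AhcKO arrays and on all 4 control arrays. They reached the 4 arrays of the filter on dim probes only with the control arrays and so lend the count no support. Among the higher genes, Trim47 was well above background on 4 Irf2_AhcKO and 3 control arrays. The probe used for Trim34a was the brighter one only through the Irf2_AhcKO arrays, and its second probe had a log2 difference of 0.17. Trim34a thus lends the higher count no independent support. The higher genes also include the close relatives Trim12a with Trim12c and Trim34a with Trim34b, and whether their probes share signal was not tested. Together the 13 genes were 25% of those measured, against 10.9% of all features. The Trim genes thus held a larger share of differences at this level than the array as a whole, mainly on the higher side. With the replicate number as a block in place of the slide, 17 Trim genes reached an unadjusted p below 0.05, 10 higher and 7 lower, again none passed after adjustment, and 11.9% of all features reached the unadjusted p. With control replicates 3 and 4 left out, 10 were higher and 3 lower, and 11.1% of all features reached that p. With only probes well above background on all 8 arrays, where neither group alone decides the filter, 38 Trim genes remained. Of these, 8 were higher and 3 lower, beside 12.4% of features in either direction. Trim30d, Trim62 and Trim7 had dropped out, so of the 4 lower genes only Trim44 can be among the 3. The others of the 3 did not reach that p in the main fit.

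The differences were spread to both sides and not shifted as a whole. The median log2 difference of the 52 genes was -0.02, beside 0.00 over all features and -0.02 over the 15105 named genes. Positive differences were found for 24 Trim genes (46.2%) and for 50.5% of all features. The size differed from the bulk of the array: 5 Trim genes (9.62%) had a log2 difference beyond 1 in either direction, against 1.28% of all features. This count rests on the background treatment, since with normexp all 5 lay within 1 of 0, between -0.37 and 0.79. At the other end, 34 Trim genes (65.4%) lay within 0.3 of 0, against 80.0% of all features. The signals of all 4 Irf2_AhcKO arrays lay above all 4 control arrays in 4 Trim genes and below them in 3. That is 7.69% and 5.77% of the measured genes, beside 1.71% and 1.9% of all features, or 13.5% beside 3.61% in either direction. Trim30d, which reached the filter on dim probes only with the control arrays, is among the 5 beyond 1 and the 3 below.

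**Figure D1:**
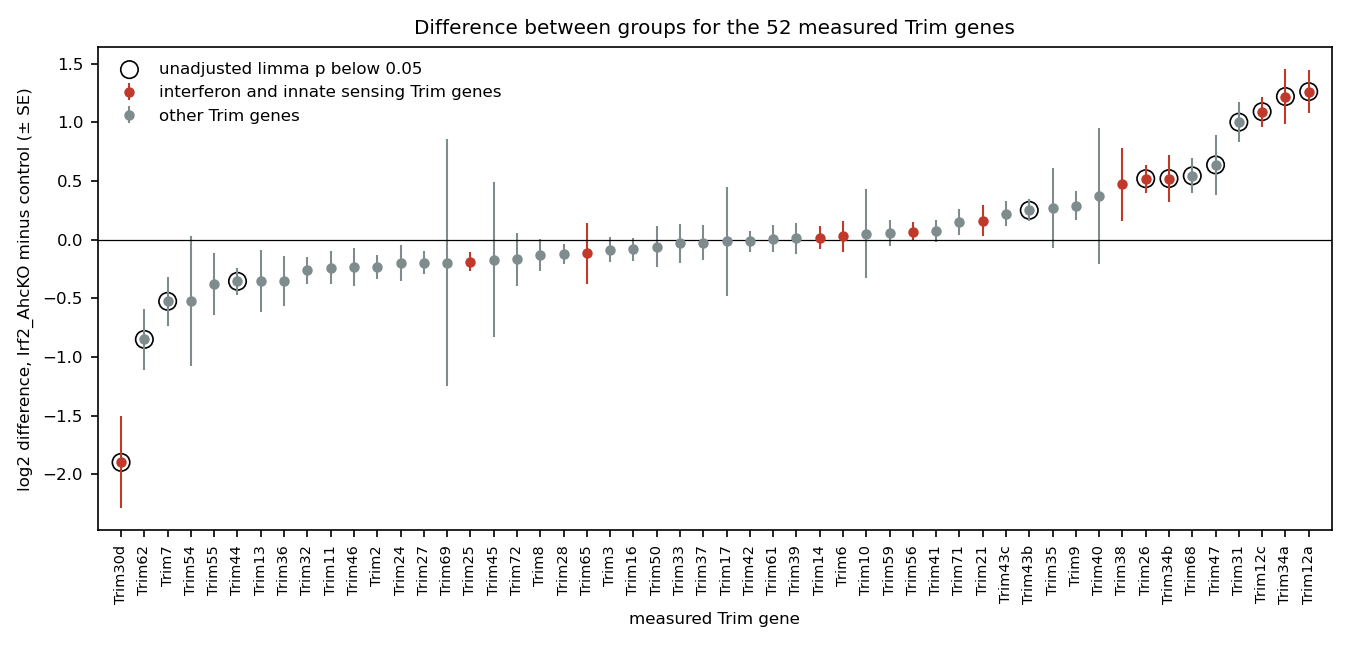
Log2 difference between Irf2_AhcKO and control (y axis, ± SE from limma, n = 4 arrays each) for the 52 measured Trim genes (x axis), in order of the difference, with interferon and innate sensing genes in red. Open circles mark the 13 genes with an unadjusted p below 0.05; Trim30d stands lowest at -1.90, and Trim12a, Trim34a, Trim12c and Trim31 stand at 1.00 or higher.

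The TRIM5 relatives Trim12a and Trim12c had among the largest positive differences, without overlap between the groups. Human TRIM5 recognises the capsid of incoming retroviruses. Trim12c had signals of -1.99, -1.64, -1.98 and -1.65 in Irf2_AhcKO (replicates 1 to 4) and of -2.75, -3.07, -2.84 and -2.97 in control. Every Irf2_AhcKO array lay above every control array, and the spread within each group was small next to the gap. The log2 difference was 1.09 (SE 0.13, 95% interval 0.79 to 1.40), 2.13-fold on the linear scale, at 1.1 on slide 1 and 1.09 on slide 2. Its limma adjusted p of 0.0624 was the lowest of the family and just missed the threshold. It was 0.216 with the replicate block.

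Trim12a had signals of -0.38, -0.06, -0.85 and -0.39 in Irf2_AhcKO and of -1.99, -1.51, -1.62 and -1.61 in control. The groups again did not overlap. Its log2 difference was 1.26 (SE 0.18, adjusted p = 0.109 by limma, and 0.210 with the replicate block), 2.40-fold, at 1.53 on slide 1 and 0.99 on slide 2. Both genes passed over all features in some of the other settings. With normexp background correction, which draws dim signals together, the log2 differences shrank to 0.79 for Trim12a (adjusted p = 0.0169) and 0.48 for Trim12c (adjusted p = 0.0344). With a variance trend the adjusted p was 0.0212 for Trim12a and 0.0269 for Trim12c. Among probes well above background on all 8 arrays, Trim12c passed at an adjusted p of 0.0336, while Trim12a did not. Over all alternatives the adjusted p lay between 0.0169 and 0.876 for Trim12a and between 0.0269 and 0.828 for Trim12c.

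Trim34a and Trim34b, the mouse relatives of human TRIM34, flank Trim5 and Trim12a in the same cluster. Trim34a had signals of -1.52, -2.33, -1.07 and -1.63 in Irf2_AhcKO and of -3.02, -3.49, -2.68 and -2.23 in control. Each Irf2_AhcKO array lay above both control arrays of its own slide, while over both slides the groups overlapped, through Irf2_AhcKO replicate 2 and control replicate 4. The log2 difference was 1.22 (SE 0.23, adjusted p = 0.192 by limma), 2.33-fold. Trim34b had signals of -2.56, -1.97, -2.40 and -2.08 in Irf2_AhcKO and of -2.81, -3.08, -2.93 and -2.28 in control. Its values pointed the same way with more overlap, and its log2 difference was 0.52 (SE 0.20, adjusted p = 0.427 by limma).

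The opposite direction was seen in Trim30d, of the mouse-specific Trim30 group, whose best-known member Trim30a limits NF-κB signalling from Toll-like receptors in mice. Trim30d had signals of -4.69, -5.29, -5.50 and -4.03 in Irf2_AhcKO and of -2.48, -2.67, -3.00 and -3.77 in control. All control arrays lay above all Irf2_AhcKO arrays, and its probe was well above background on 1 of 4 Irf2_AhcKO arrays and on 4 of 4 control arrays. Its log2 difference of -1.90 (SE 0.39, adjusted p = 0.217 by limma), at -2.42 on slide 1 and -1.38 on slide 2, was read against Irf2_AhcKO signals mostly at background, so its size is uncertain. With normexp it was -0.37. Trim30d reached the filter on dim probes only with the control arrays, so its p is not independent of the filter. Trim30a and Trim30b each had 1 probe that was well above background on none of the 8 arrays, Trim30e-ps1 had 1 that was so on 1 array, and Trim30c had no named probe. Trim5 had none either.

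Trim6 and Trim21, also on chromosome 7, showed small differences. Trim6, whose protein builds unanchored ubiquitin chains in interferon signalling, had signals of -1.58, -1.32, -2.13 and -2.19 in Irf2_AhcKO and of -1.73, -1.73, -1.87 and -2.0 in control. The log2 difference was 0.03 (95% interval -0.28 to 0.33), at 0.28 on slide 1 and -0.22 on slide 2. Trim21, the cytosolic antibody receptor, had signals of -2.58, -2.23, -2.58 and -2.48 in Irf2_AhcKO and of -2.60, -2.70, -2.38 and -2.83 in control. Its groups overlapped widely, at a log2 difference of 0.16 (95% interval -0.15 to 0.47). It was 0.07 without Irf2_AhcKO replicate 2 and 0.27 without control replicate 3. Trim68, a neighbour of Trim21 and in human cells a partner of the androgen receptor, had signals of -2.12, -2.58, -2.55 and -2.33 in Irf2_AhcKO and of -2.57, -2.87, -3.08 and -3.24 in control. The groups of Trim68 met at a single pair of arrays, and its log2 difference was 0.54 (SE 0.15, adjusted p = 0.321 by limma).

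**Figure D2:**
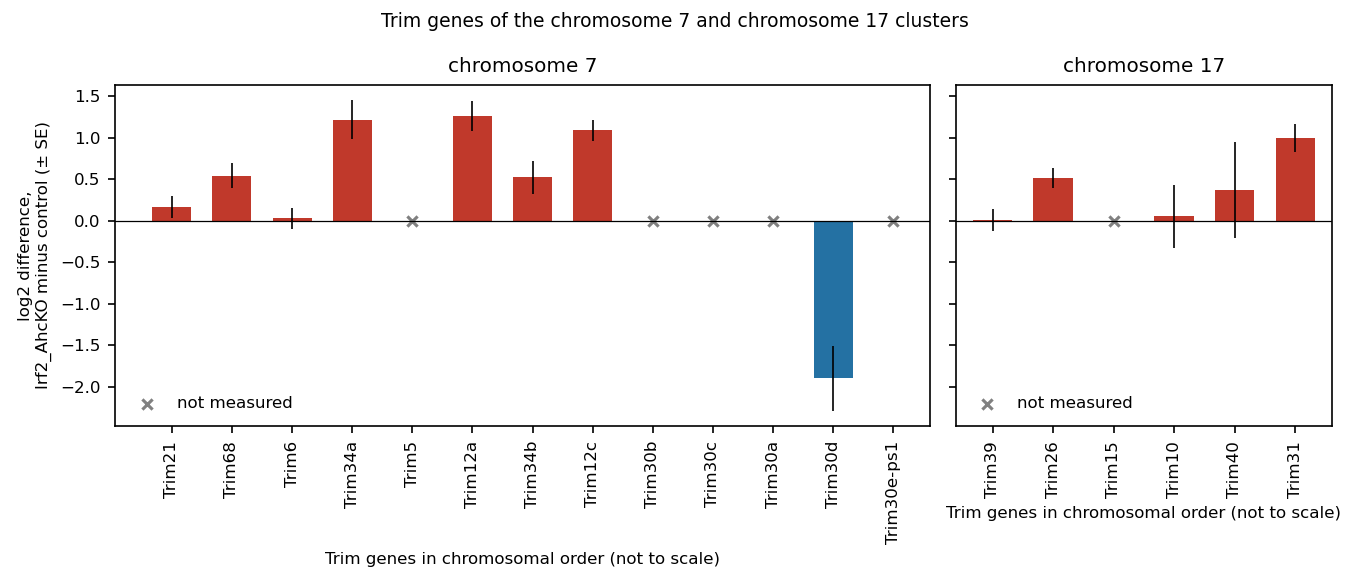
Log2 difference between Irf2_AhcKO and control (bars, y axis, ± SE, n = 4 arrays each) for Trim genes in the order in which they lie on chromosome 7 (left) and chromosome 17 (right); distances are not to scale red bars are positive, blue bars negative, and crosses mark genes that were not measured. On chromosome 7, Trim34a, Trim12a, Trim34b and Trim12c stood at 0.52 to 1.26 and Trim30d at -1.90; on chromosome 17, Trim26 and Trim31 stood at 0.52 and 1.00.

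By position, 6 of the 13 genes with an unadjusted p below 0.05 lay on chromosome 7, where 11 of 17 Trim genes were measured. That p was reached by 10.9% of all features, and the share on each chromosome was not read. Of the 6, Trim30d reached the filter on dim probes only with the control arrays. Trim34a, also of the 6, was read with a probe that was the brighter one only through the Irf2_AhcKO arrays. A further 2 genes at that p lay on chromosome 17, where 5 of 6 were measured, and 2 on chromosome 11 with 9 measured. These counts describe position only. Trim12a with Trim12c and Trim34a with Trim34b are close relatives, and whether their probes share signal was not tested.

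The other probes of these genes were read where they exist. The second Trim12a probe had a log2 difference of 1.73, with -1.21 ± 0.39 in Irf2_AhcKO and -2.94 ± 0.52 in control (SD, n = 4 each), without overlap. Of the other Trim12c probes, one had a difference of 1.63 without overlap and one of 0.13 with overlap. The second Trim34a probe had a difference of 0.17, with -0.27 on slide 1 and 0.61 on slide 2. Thus both Trim12a probes and 2 of 3 Trim12c probes had non-overlapping groups, while the Trim34a probes disagreed. The second Trim34a probe averaged -2.45 in Irf2_AhcKO and -2.62 in control, against -1.64 in Irf2_AhcKO and -2.86 in control for the used one. The used probe was thus the brighter one only through the Irf2_AhcKO arrays, and its difference is not independent of how the probe was chosen. Trim30d had 1 probe. Of the 15 members with several kept probes, Trim35 and Trim43c differed most otherwise: 1.20 against 0.27 for Trim35 and -0.45 against 0.22 for Trim43c, the used probe given second. On the second Trim35 probe, Irf2_AhcKO replicate 3 stood at -0.50 and the other 7 arrays between -5.54 and -3.45. These further probes were not tested on their own.

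**Figure D3:**
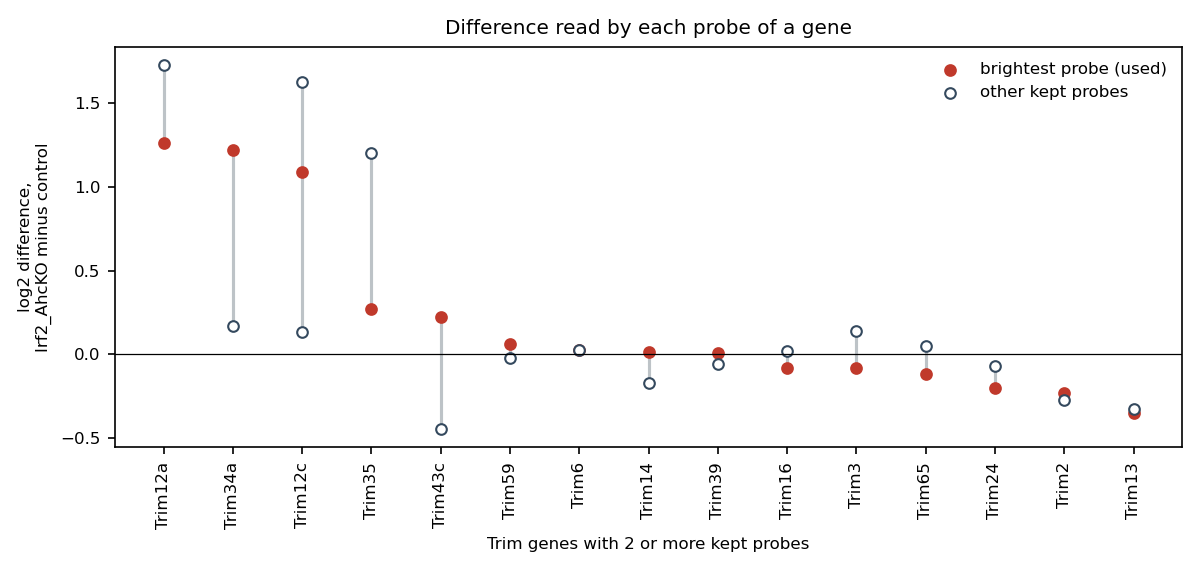
Log2 difference between Irf2_AhcKO and control (y axis) for every kept probe of the 15 Trim genes with several kept probes (x axis); filled points are the brightest probe, which represents the gene, and open points its other kept probes. The Trim12a probes read 1.26 and 1.73 and the Trim34a probes 1.22 and 0.17.

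On chromosome 17, in the MHC region, Trim31 and Trim26 were higher in Irf2_AhcKO. Trim31, a ligase known from the gut epithelium that acts on the adaptor MAVS, had signals of -2.47, -2.37, -2.29 and -2.36 in Irf2_AhcKO and of -3.96, -3.56, -3.13 and -2.85 in control. The Irf2_AhcKO arrays lay close together above all control arrays, which spread over more than a unit. The log2 difference was 1.00 (SE 0.17, adjusted p = 0.154 by limma), 2.00-fold, at 1.34 on slide 1 and 0.67 on slide 2. It was 0.38 with normexp. Trim26, a ligase of nuclear IRF3, had signals of 1.00, 0.94, 1.16 and 1.03 in Irf2_AhcKO and of 0.15, 0.30, 0.91 and 0.70 in control. Its groups did not overlap either, with the control arrays of slide 2 close below the Irf2_AhcKO arrays. The log2 difference was 0.52 (SE 0.12, adjusted p = 0.252 by limma), at 0.74 on slide 1 and 0.30 on slide 2. Their neighbours Trim39, Trim10 and Trim40 had log2 differences of 0.01, 0.05 and 0.37 with overlapping groups, and the probe of Trim15 was well above background on 1 array.

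Several TRIM genes known for their part in virus sensing showed little difference at well-measured signals. Trim25, the ligase that ubiquitinates the RNA sensor RIG-I, had signals of 5.57, 5.70, 5.62 and 5.55 in Irf2_AhcKO and of 5.93, 5.75, 5.73 and 5.76 in control. All control arrays lay above the Irf2_AhcKO arrays by a narrow margin, and the log2 difference was -0.19 (95% interval -0.37 to 0.00, limma adjusted p = 0.46). Trim56, a ligase in STING and Toll-like receptor signalling, had signals of 5.08, 4.92, 4.14 and 4.17 in Irf2_AhcKO and of 4.97, 4.81, 4.18 and 4.08 in control. Its signals separated by slide and not by group, and the log2 difference was 0.07 (95% interval -0.13 to 0.26). Trim14, an adaptor at MAVS, had signals of 0.03, -0.21, 0.02 and -0.27 in Irf2_AhcKO and of -0.13, -0.15, -0.06 and -0.15 in control. Here the log2 difference was 0.02 (95% interval -0.22 to 0.25). For these 3 genes the intervals leave out a change of 1 log2 unit in either direction.

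Trim38 and Trim65 were measured less precisely. Trim65, which ubiquitinates the RNA sensor MDA5, had signals of -0.73, -1.36, -0.11 and -0.93 in Irf2_AhcKO and of -0.60, -0.58, -0.47 and -1.0 in control. Its log2 difference was -0.12 (95% interval -0.73 to 0.49), with opposite signs on the slides, at -0.45 and 0.22. Trim38, which limits Toll-like receptor signalling, had signals of -3.51, -2.99, -2.45 and -3.54 in Irf2_AhcKO and of -3.02, -3.42, -3.97 and -3.97 in control. Its log2 difference was 0.47 (95% interval -0.26 to 1.21), with -0.03 on slide 1 and 0.97 on slide 2, and it was 0.15 without Irf2_AhcKO replicate 3. In all, 13 of 18 interferon and innate sensing Trim genes were measured. At an unadjusted p below 0.05, 5 were higher and 1 lower, where 5.92% and 4.99% of all features were, and 7 did not reach it. The higher ones were Trim26 and the chromosome 7 neighbours Trim12a, Trim12c, Trim34a and Trim34b. Of these, Trim34a was read with a probe that was the brighter one only through the Irf2_AhcKO arrays. None of the 13 passed over all features, and their median log2 difference was 0.16, beside 0.00 over all features.

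**Figure D4:**
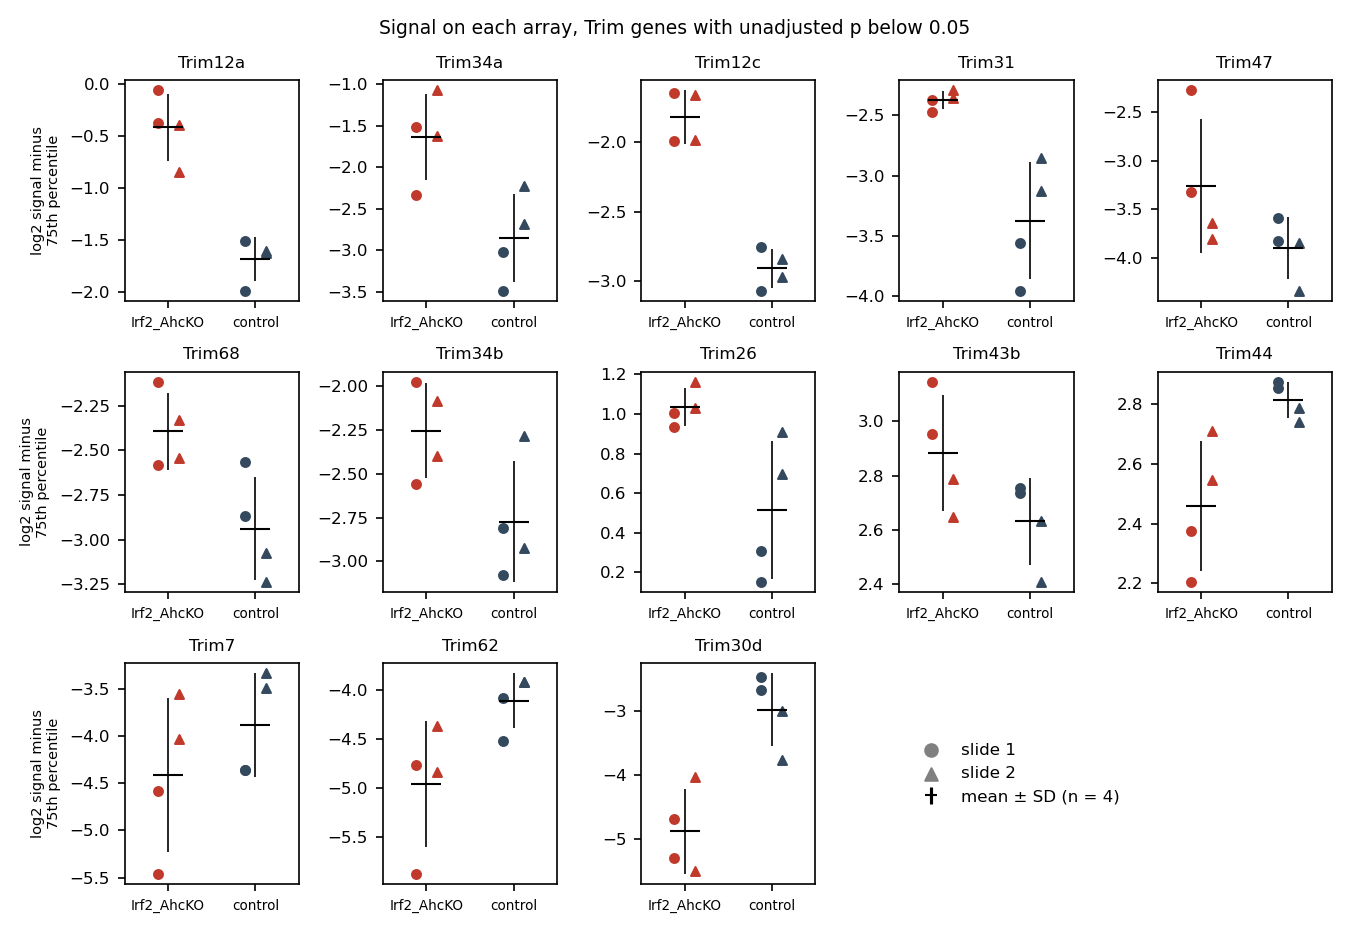
Signal on each of the 8 arrays (log2 processed intensity minus the array's 75th percentile, y axis) for the 13 Trim genes with an unadjusted p below 0.05, Irf2_AhcKO left and control right; circles are slide 1, triangles slide 2, and bars the mean ± SD of 4 arrays. The groups stand fully apart in Trim12a, Trim12c, Trim31, Trim26, Trim44 and Trim30d and overlap in the other panels.

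Among the remaining genes, Trim44, Trim62 and Trim7 were lower in Irf2_AhcKO and Trim43b and Trim47 higher at an unadjusted p below 0.05. Trim44, which has a ubiquitin-protease type zinc finger in place of a RING, had signals of 2.38, 2.20, 2.71 and 2.55 in Irf2_AhcKO and of 2.86, 2.87, 2.79 and 2.74 in control. The groups did not overlap, at a log2 difference of -0.36 (SE 0.12, adjusted p = 0.374 by limma), -0.57 on slide 1 and -0.14 on slide 2. Trim62, tied to epithelial polarity in human cells, had signals of -5.87, -4.77, -4.84 and -4.37 in Irf2_AhcKO and of -4.52, -4.08, -3.92 and -3.92 in control. No Irf2_AhcKO array and all 4 control arrays were well above background. Each Irf2_AhcKO array was then counted at its own signal or, if higher, at the dimmest signal of any probe well above background there. So counted, Trim62 was 1.19-fold lower in Irf2_AhcKO by group means, while the fit without this floor gave a limma adjusted p of 0.356. The 1.19-fold value has no error estimate and is no firm lower limit, as the normexp log2 difference was -0.07. Trim62 had passed the filter on dim probes through the control arrays alone, so its p is not independent of the filter. Trim7, known to bind glycogenin, had signals of -5.46, -4.59, -4.04 and -3.56 in Irf2_AhcKO and of -4.36, -4.36, -3.49 and -3.33 in control. It was well above background on 2 of 4 Irf2_AhcKO and 4 of 4 control arrays, so its p too is not independent of the filter. Its log2 difference was -0.53 (SE 0.21, adjusted p = 0.436 by limma), and -0.32 without Irf2_AhcKO replicate 1.

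Trim43b, one of a set of near-copies known from the early embryo, had signals of 2.95, 3.15, 2.65 and 2.79 in Irf2_AhcKO and of 2.76, 2.74, 2.41 and 2.63 in control. Within each slide the Irf2_AhcKO arrays lay higher, at a log2 difference of 0.25 (SE 0.09, adjusted p = 0.414 by limma), while over both slides the groups overlapped. Its near-copy Trim43c had a log2 difference of 0.22, and Trim43a had no named probe. Trim47 had signals of -2.28, -3.32, -3.80 and -3.63 in Irf2_AhcKO and of -3.59, -3.82, -3.84 and -4.33 in control. Its log2 difference of 0.64 (SE 0.25, adjusted p = 0.44 by limma) leaned on Irf2_AhcKO replicate 1, and was 0.37 without that array. With normexp background correction the differences of dim probes shrank, to 0.53 for Trim34a, 0.15 for Trim34b, 0.22 for Trim68, 0.18 for Trim47, -0.07 for Trim62 and -0.06 for Trim7.

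The chromatin members carry a PHD finger and a bromodomain. Trim28, the corepressor that KRAB zinc finger proteins recruit to silence transposons, had a log2 difference of -0.13 (95% interval -0.33 to 0.08). Trim24, a histone reader and nuclear receptor cofactor, stood at -0.20 and Trim33, a partner of SMAD proteins, at -0.03, and the probe of Trim66 was well above background on no array. All 3 measured members were slightly negative and none reached an unadjusted p below 0.05. The 4 NHL repeat genes behaved alike in size: Trim32 at -0.26, Trim2 at -0.23, Trim3 at -0.08 and Trim71, the mouse relative of worm lin-41, at 0.15. None of the NHL repeat genes reached that p. With the replicate block Trim24, Trim2 and Trim32 did, at adjusted limma p values of 0.417, 0.417 and 0.401.

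Of 8 COS box genes, 6 were measured and none reached an unadjusted p below 0.05, with log2 differences from -0.52 to 0.29. They were Trim54 (-0.52) and Trim55 (-0.38) of muscle sarcomeres, Trim36 (-0.35), Trim46 (-0.23) of the axon initial segment, Trim42 (-0.01) and Trim9 (0.29), a partner of netrin receptors in neurons. Trim9 did reach that p with the replicate block, at an adjusted limma p of 0.416. Trim54 spread widely in control, between -5.19 and -2.41. Trim13 of the endoplasmic reticulum stood at -0.35, with 0.10 on slide 1 and -0.81 on slide 2. Trim37, a ligase of peroxisomes and centrosomes, stood at -0.02 and Trim59 at 0.06, while Trim23 had no named probe. Trim16, which lacks a RING, stood at -0.08, and the probe of Trim29 was well above background on 1 array. None of the others named here reached an unadjusted p below 0.05 either.

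The rest of the measured members stayed between log2 differences of -0.24 and 0.27, none with an unadjusted p below 0.05. In order of their difference they were Trim11 (-0.24), Trim27 (-0.20), Trim69 (-0.20), Trim45 (-0.17), Trim72 (-0.17), Trim8 (-0.13), Trim50 (-0.06), Trim17 (-0.01), Trim61 (0.01), Trim41 (0.07) and Trim35 (0.27). Their precision differed greatly. Trim41 had an SE of 0.09, whereas Trim69 had one of 1.05, with signals from -5.51 to -3.44 in Irf2_AhcKO and from -6.42 to -2.12 in control. The 13 members with a named probe that was not kept were not well above background on nearly all arrays. Trim15, Trim29, Trim30e-ps1, Trim60, Trim63 and Trim67 were so on 1 array each, and Trim30a, Trim30b, Trim52, Trim58, Trim66, Trim75 and Trim80 on none.

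More Trim genes differed between slides than between groups. Between slides, 13 of the 52 (25%) passed an adjusted limma p of 0.05, 3 higher (5.77%) and 10 lower (19.2%) on slide 2, beside 34.4% of all features, 11.8% higher and 22.6% lower. Among those that passed, the largest shifts were those of Trim42, at -3.53 on slide 2 and -2.28 on slide 1, and Trim55, at -3.17 and -2.03 in the same order. Trim56 stood at 4.14 on slide 2 and at 4.95 on slide 1. Of the 13 genes with an unadjusted p below 0.05 between the groups, Trim7 was the only one that also passed between slides. All 13 had the same sign of the group difference on both slides, which the p value itself favours, and 34 of all 52 measured genes did. A difference of the group effect between slides was tested as an interaction: no Trim gene and 0% of all features passed after adjustment (limma). At an unadjusted p below 0.05 the interaction was found for 3 Trim genes, Trim31, Trim6 and Trim44, and for 4.56% of all features.

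**Figure D5:**
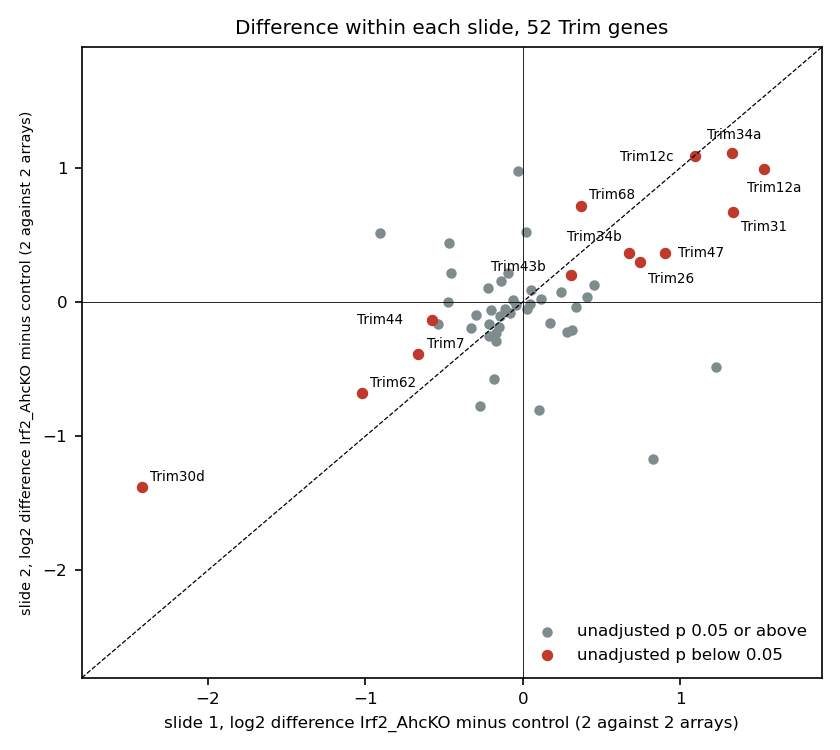
Log2 difference between Irf2_AhcKO and control within slide 1 (x axis) and within slide 2 (y axis), each from 2 against 2 arrays, for the 52 measured Trim genes; the dashed line marks equal differences. The 13 named genes with an unadjusted p below 0.05 lie in the quadrants of equal sign, all but Trim68 nearer to 0 on slide 2, such as Trim30d at -2.42 and -1.38.

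The promoter letters were then set against the differences. GAAA, any 2 bases and GAAA occurred in the RefSeq promoters of 9 of 53 Trim genes with a promoter in the table (17%), beside 1079 of 27025 genes of any kind (3.99%) and 1131 of 32851 promoters (3.44%). The 9 were Trim2, Trim5, Trim12a, Trim12c, Trim21, Trim26, Trim30a, Trim30d and Trim34a, and 7 of them were measured. At an unadjusted p below 0.05, 4 of the 7 were higher in Irf2_AhcKO (Trim12a, Trim12c, Trim34a, Trim26) and 1 was lower (Trim30d), while Trim21 and Trim2 did not reach it. Of the 31 measured Trim genes whose promoters lacked the letters, 4 were higher and 3 lower at that p, Trim31 and Trim34b among the higher ones. Over all 451 named genes with the letters, 9.53% were higher and 6.87% lower, beside 4.49% and 6.44% of the 11584 named genes without them. The higher share thus stood above that of genes without the letters, while the lower share was near it. Trim30d, the 1 lower Trim gene with the letters, had Irf2_AhcKO signals mostly at background and reached the filter only with the control arrays. Trim34a, among the higher ones, was read with a probe that was the brighter one only through the Irf2_AhcKO arrays. Its second probe had a log2 difference of 0.17, so Trim34a lends the higher count no independent support. For 14 measured Trim genes no promoter was read.

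A second set of letters, TTCNNNGAA, the palindromic core of STAT sites, was searched on both strands as well. It occurred in 6 of 53 Trim genes (11.3%), Trim15, Trim30c, Trim31, Trim38, Trim45 and Trim46, beside 9.55% of all genes. Of these, only Trim31 was among the 13 genes with an unadjusted p below 0.05. The share of Trim genes with these letters was thus near that of all genes. A match describes the letters in this window, and no binding was measured here.

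Partners of the TRIM proteins were followed in 4 further lists. Of 7 TRIM proteins filed under other symbols, 4 were measured and none reached an unadjusted p below 0.05: Mid1 at 0.20, Pml, the organiser of nuclear bodies, at 0.07, Mefv (pyrin) at 0.08 and Mid2 at -0.05. Among 8 partners in the RIG-I pathway, Tbk1, the kinase that activates IRF3, was higher with a log2 difference of 0.46 (SE 0.10, adjusted p = 0.239 by limma) and non-overlapping groups. The RNA sensor gene Ddx58 (RIG-I) stood at -0.39 and its ligase gene Rnf135 at -0.20, neither at an unadjusted p below 0.05. Of 16 Trim28 cofactors and HUSH complex genes, Tasor2 passed over all features at a log2 difference of 1.02 (SE 0.11, adjusted p = 0.0499 by limma), a value close to the threshold, and with the replicate block no feature passed. Dnmt1 at 0.25 and Hdac1 at -0.19 reached an unadjusted p below 0.05, and Setdb1, the histone methyltransferase that Trim28 recruits, stood at -0.05. Of 13 conjugating enzymes that supply RING ligases, Ube2e2 (-0.35) and Ube2e1 (-0.19) were lower at an unadjusted p below 0.05 and none was higher. The list median was -0.09, beside -0.02 over the named genes. Of all features, 5.92% were higher and 4.99% lower at that p. The few genes of these short lists are given individually and not as a result of a list.

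Markers of other cells were read on the same arrays, since several Trim genes are also expressed in leukocytes and in mature enterocytes. Of 9 T cell and intraepithelial lymphocyte markers 5 were measured, and their summed linear signal was 8.36 to 9.43 in Irf2_AhcKO and 5.67 to 8.21 in control. All 5 differences were positive, and 1, Nkg7, reached an unadjusted p below 0.05. The probes of Cd3g, Cd3d and Cd8a were not kept, while Cd3e and Ptprc were well above background on all 8 arrays, at 0.15 and 0.05. The 6 myeloid markers overlapped, at 127 to 278 in Irf2_AhcKO and 128 to 265 in control, as did the 3 measured B cell markers, at 0.256 to 0.330 in Irf2_AhcKO and 0.188 to 0.268 in control. Fcer1g (0.53) of the myeloid list and Cd79b (1.33) of the B cell list reached an unadjusted p below 0.05. Of 9 enterocyte markers 6 were lower and 1 was higher at an unadjusted p below 0.05, with sums of 65.5 to 81.8 in Irf2_AhcKO and 90.3 to 1475 in control. The upper end came from Sis on control replicate 4, and without that array the control sums were 90.3 to 110.1. Beside these marker counts, 5.92% of all features were higher and 4.99% lower at an unadjusted p below 0.05. None of these markers passed over all features. The T cell and intraepithelial lymphocyte sums thus did not overlap, by a narrow margin of 8.36 against 8.21, nor did the enterocyte sums. The brightest marker weighs most in each sum: Nkg7 for T cells, Itgam for myeloid cells and Fabp2 for enterocytes, apart from Sis on control replicate 4. These sums speak mainly for those genes and less for a cell type. The part of the markers in the Trim differences was not tested. In such sorted bulk samples, fewer cells of a type and less RNA per cell cannot be told apart.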

How the data were processed

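The values started from the scanner intensities that the authors deposited, 1 array per sample, from Agilent Feature Extraction 11.5.1.1 per the submitters' processing notes. The processed signal, an intensity that the software had already corrected for background per the file headers, was taken as log2 minus the 75th percentile of its array. Control spots and outlier spots were left out and spots of 1 probe averaged. The authors' deposited value table was a constant multiple of the same intensities within each array, with a factor of 6.41 to 6.90. Probes were named through RefSeq identifiers of GRCm38.p6, which gave 28331 named and 27350 unnamed probes. Each named gene was represented by its brightest probe well above background on at least 4 arrays, and each such unnamed probe was a feature of its own.

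Differences are Irf2_AhcKO minus control from limma 3.58.1 in R 4.3.3 with slide as a term, over 8 arrays, with Benjamini-Hochberg adjustment over all features. The procedure was tested on simulated data. Signals on all arrays are given for Trim genes at an unadjusted p below 0.05, the 3 most positive and negative differences, and the sensing genes. The Trim genes and the other lists were chosen with earlier results of these data known. Same-numbered samples correlated at 0.44 to 0.52 after removal of group means, so the replicate number was used as a block, although after removal of slide means too the correlation was 0.02 on slide 1 and 0.18 on slide 2. The normexp alternative used the median signal and median background, with an offset of 50. No probe sequences or proteins were used here.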

Additional observations from a re-analysis of the deposited data

Results flagged for a closer look

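For each measured Trim gene the highest and lowest array of each group of 4 was set against the others, and 2 of 104 such groups held an array that stood apart by Dixon's criterion. Chance alone marks about 1 group in 20. Trim72, known for membrane repair in muscle, had a signal of -3.52 in Irf2_AhcKO replicate 1, while the other Irf2_AhcKO arrays lay between -2.47 and -2.41, a gap of 0.938 of the range. Trim25 had a signal of 5.93 in control replicate 1, while the other control arrays lay between 5.73 and 5.76, a gap of 0.865 of the range. Without that control array the log2 difference of Trim25 was -0.14.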

How the results depend on the processing

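In 22 other settings, 416 of 435 values for the 20 Trim genes given by array kept their direction and side of the threshold, and 5 passed it, all of Trim12a or Trim12c. The count of 416 includes settings in which the direction could not change. The authors' value table, a constant multiple within each array, gave the main values by construction. No slide term, the replicate block, the variance trend and the joining of unnamed probes left each log2 difference as it was, and only its p could move. A changed filter on dim probes also kept the difference of a gene read with the same probe. The 416 is thus no measure of how stable the directions are. The number of features passing, 17, was 134 with normexp, 116 with a variance trend, 31 among probes well above background on all 8 arrays, 10 without the slide term, and 0 with no filter on dim probes, on slide 1 alone or on slide 2 alone. It lay between 0 and 13 with 1 array left out, and was 13 only without control replicate 4. The number of Trim genes passing, 0, was 2 with normexp and with a variance trend, 1 among probes above background on all arrays, and 0 to 0 with any 1 array left out.

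At an unadjusted p below 0.05, slide 2 alone gave 7 Trim genes, 5 higher and 2 lower, beside 5.3% of all features, and slide 1 alone gave 7 higher and 2 lower, beside 9.41%. With 1 array left out there were 9 to 16, with 6 to 10 higher and 2 to 6 lower, beside 8.13% to 14.9% of all features. The count of 16 came without control replicate 4, where the share of all features was also highest, at 14.9%. The median difference lay between -0.0499 and 0.0405, the highest without control replicate 3. Trim genes differing between slides numbered 10 to 13.

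With the replicate block, 0 features passed and 7 Trim genes were lower at an unadjusted p below 0.05. The pairing check gave the block little ground beyond the slide. With slide means removed, same-numbered samples correlated at 0.02 on slide 1 and 0.18 on slide 2. The block changed no other count of Trim genes by over 1.5 times.

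Chosen after seeing the data, leaving out control replicates 3 and 4, which makes the difference rest on slide 1, gave 0 features passing and 6 Trim genes differing between slides. Taking unnamed probes of 1 identifier as 1 feature, also chosen then, gave 25 features passing.

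Small differences turned sign: Trim14 was -0.012 with median centring, -0.0765 as a mean over probes, -0.0167 on slide 2 alone, and -0.0381 to 0.0807 with 1 array left out. Trim6 was -0.000639 with median centring, -0.225 on slide 2 alone and -0.0762 to 0.103 with 1 array left out. Trim65 was 0.218 on slide 2 alone and -0.347 to 0.0743 with 1 array left out, and Trim38 was -0.0307 on slide 1 alone and without control replicates 3 and 4. The cause was not tested. Signals near background limit Trim30d, Trim62 and Trim7, and 8 arrays limit the precision of all.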
